A study of Homo sapiens with 12 samples.

Results

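Mitochondrial ribosomal protein genes were taken as every gene name in the count files that begins with MRPL or MRPS, goes on with digits and at most a single letter A, B or C, and then ends. The rule found 77 of 56832 gene names, 48 for the large subunit (MRPL) and 29 for the small subunit (MRPS), and left out the pseudogenes. They were measured in MDA-MB-468 cells, an established line from a human breast tumour of the basal-like kind, which stably carried a pCDH-TRB vector or the empty vector pCDH-EV. After 24 hours of hormone starvation in medium without phenol red and with charcoal-stripped serum, cells received the thyroid hormone T3 at 10 nM or its NaOH vehicle for 24 hours. The 4 groups of 3 RNA sequencing libraries each are called TRB T3, TRB vehicle, EV T3 and EV vehicle, after vector and treatment. The labels do not tell whether a vector is represented by 1 clone or a mixed population, so every difference between TRB and EV cells is a difference between 2 stable lines. Nor do they tell whether the 3 libraries of a group are from separate dishes, and p-values therefore cover the spread among these libraries alone, part or all of which may be technical.

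Mitochondria translate the few messenger RNAs of their own genome on a ribosome that is separate from that of the cytosol. Its RNAs, MT-RNR1 in the small subunit and MT-RNR2 in the large one, are copied from mitochondrial DNA, whereas every protein of it is encoded in the nucleus, made in the cytosol and imported. The small subunit binds messenger RNA and decodes it, and the large subunit joins amino acids and sits at the inner membrane, where the products of oxidative phosphorylation genes are inserted. Some of the proteins have a counterpart in the bacterial ribosome and others exist only in mitochondria. Thyroid hormone is known for raising mitochondrial content and respiration in several tissues, and its receptors act as transcription factors that bind T3.

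The symbols and the subunits differ for a few members. RefSeq names give MRPS18A and MRPS30 as large subunit proteins (mL66 and mL65) and name MRPS36 as KGD4, a component of the oxoglutarate dehydrogenase complex, so 50 members belong to the large and 26 to the small subunit by structure. Of those 50, 30 have a bacterial counterpart and 20 do not, and of the 26, 14 have one, 10 do not and 2 (MRPS24 and MRPS28) carry no such class in their RefSeq name. Unless said otherwise, members are grouped below by symbol.

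THRB, the gene for thyroid hormone receptor beta, averaged 329 ± 16.7 CPM (read counts scaled for library size) in TRB T3 and 140 ± 4.15 in TRB vehicle libraries, against 38.5 ± 1.23 in EV T3 and 43.4 ± 0.824 in EV vehicle libraries (SD, n = 3 each); the counts do not separate the vector's transcript from the native one. The epithelial genes EGFR (4225 to 5664 CPM), EPCAM (301 to 379 CPM) and KRT5 (197 to 1161 CPM) were present in all 12 libraries. Of the luminal receptor markers, PGR had no count in any library. ERBB2 averaged 134 CPM in TRB T3, 96.5 in TRB vehicle, 82.1 in EV T3 and 80.5 in EV vehicle libraries. ESR1 averaged 10.4, 7.09, 6.23 and 6.66 CPM in the same order. Both were called higher with T3 in TRB cells (log2 fold change 0.47 and 0.55). Of the markers of other cells, COL1A2 and DCN had no count in any library. The 9 markers of leukocytes, fibroblasts and endothelium summed to 209 to 220.2 CPM in TRB T3 and 36.5 to 41.1 in TRB vehicle libraries. They summed to 68.8 to 70.8 in EV T3 and 45.9 to 51.0 in EV vehicle libraries. CD14, a monocyte marker, ran from 17.5 to 194 CPM and COL1A1, a fibroblast collagen gene, from 14.6 to 21.1 CPM, while the leukocyte gene PTPRC stayed at or below 0.498 CPM. Of 10 epithelial markers chosen for this basal-like line, 6 fell with T3 in TRB cells and 1, CDH1, rose (log2 fold change 0.34). The keratins KRT5 (-2.01), KRT14 (-1.31), KRT17 (-1.61), KRT6A (-2.07) and KRT6B (-1.92) fell, as did EPCAM (-0.19). EGFR, KRT8 and KRT18 were not called. The part of these markers in the results was not tested. Gene totals ran from 4241863 to 11955825 counts, and the T3 libraries were all deeper than any vehicle library. The RNAs of the mitochondrial ribosome itself also moved with treatment, at 0.0578 to 0.0900% of counts in TRB T3 and 0.0502 to 0.0667% in EV T3 libraries, against 0.707 to 1.80% in TRB vehicle and 0.326 to 2.68% in EV vehicle libraries.

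All but one member passed the filter on low counts, which leaves 76 tested, all 48 of the large and 28 of the small subunit. MRPS24, a small subunit protein, had 4 to 10 counts per library (0.448 to 0.964 CPM) and was not tested; 23.19% of its exonic bases are shared with the readthrough gene URGCP-MRPS24, and HTSeq by default discards reads that fall on both. The 76 tested members spanned a mean of 2.18 CPM for MRPL53 to 229 CPM for MRPL4, with a median of 40.4 CPM. MRPS28 (2.20 CPM) and MRPL38 (4.73 CPM) were the next lowest, and MRPL49 (177 CPM) and MRPL37 (175 CPM) the next highest. MRPL53, MRPL38 and MRPS28 share 45.24%, 37.48% and 35.77% of their exonic bases with genes on the same strand. Part of their reads may thus have been discarded. Per kilobase of annotated exons the order changed: MRPL37 led with 68.8 CPM per kilobase, followed by MRPS34 with 62.0 and MRPS26 with 61.3, and MRPL46 was lowest with 0.940. The median per kilobase was 17.8 CPM for the large and 13.2 CPM for the small subunit. Some levels are uncertain because genes on the opposite strand overlap the member and the labels do not state whether strand was used: 47.04% of the exonic bases of MRPS18A, 40.2% of MRPS18C, 36.92% of MRPL43, 33.22% of MRPL9, 31.33% of MRPL51, 22.24% of MRPS25 and 21.35% of MRPL4 are shared in this way, and other members share less. Together the members took 0.373 to 0.415% of all gene counts in every library.

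The first comparison asked what T3 did to these genes in cells with the added receptor. T3 moved the members in both directions and by small amounts. Of 76 tested, 19 rose and 7 fell in TRB T3 against TRB vehicle libraries (edgeR quasi-likelihood test; adjusted p below 0.05, by Benjamini-Hochberg over 14549 genes). That is 34.2% of the members called, where 44.4% of all genes tested were called, 22.4% higher and 21.9% lower. The median log2 fold change was -0.018 over the members and -0.0017 over all genes tested, and 73 of the 76 members had a log2 fold change of less than 0.5 in either direction. In 21 members every TRB T3 library lay above every TRB vehicle library and in 10 every one lay below, or 27.6% and 13.2% of the members, against 26.1% and 25.8% of all genes tested. With offsets for GC content, the split was 14 higher and 12 lower in place of 19 and 7. All genes tested in that setting shifted too, to 2892 higher and 3413 lower (48.8% called), in place of 3264 and 3192.

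In the small subunit 11 of 28 members rose and 3 fell, and in the large subunit 8 of 48 rose and 4 fell. That is 50% and 25% called, where 44.4% of all genes tested were called, 22.4% higher and 21.9% lower. The small subunit's share in either direction was thus near that of all genes. It was lower without TRB T3 replicate 1, with 8 members higher and 3 lower, where 41.1% of all genes tested were called. With GC offsets the large subunit's split turned to 6 higher and 8 lower, while the small subunit had 8 higher and 4 lower. In that setting all genes tested also had more lower than higher calls, 3413 against 2892. The median log2 fold change was 0.053 for the small and -0.034 for the large subunit, and both depended on single libraries. Without TRB T3 replicate 1 they were 0.0093 and -1.76e-06, and the large subunit's median was -0.0041 without TRB vehicle replicate 1 and 0.018 without TRB vehicle replicate 2. Without TRB T3 replicate 3 the small subunit's median was 0.097. Grouped by structure, 10 of 25 tested small subunit members rose and 3 fell, and 9 of 50 large subunit members rose and 4 fell. The called share was highest among small subunit proteins with a bacterial counterpart, at 7 higher and 2 lower of 14, and lowest among large subunit proteins without one, at 2 higher and 2 lower of 20. These shares are descriptions, and their difference was not tested.

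**Figure D1:**
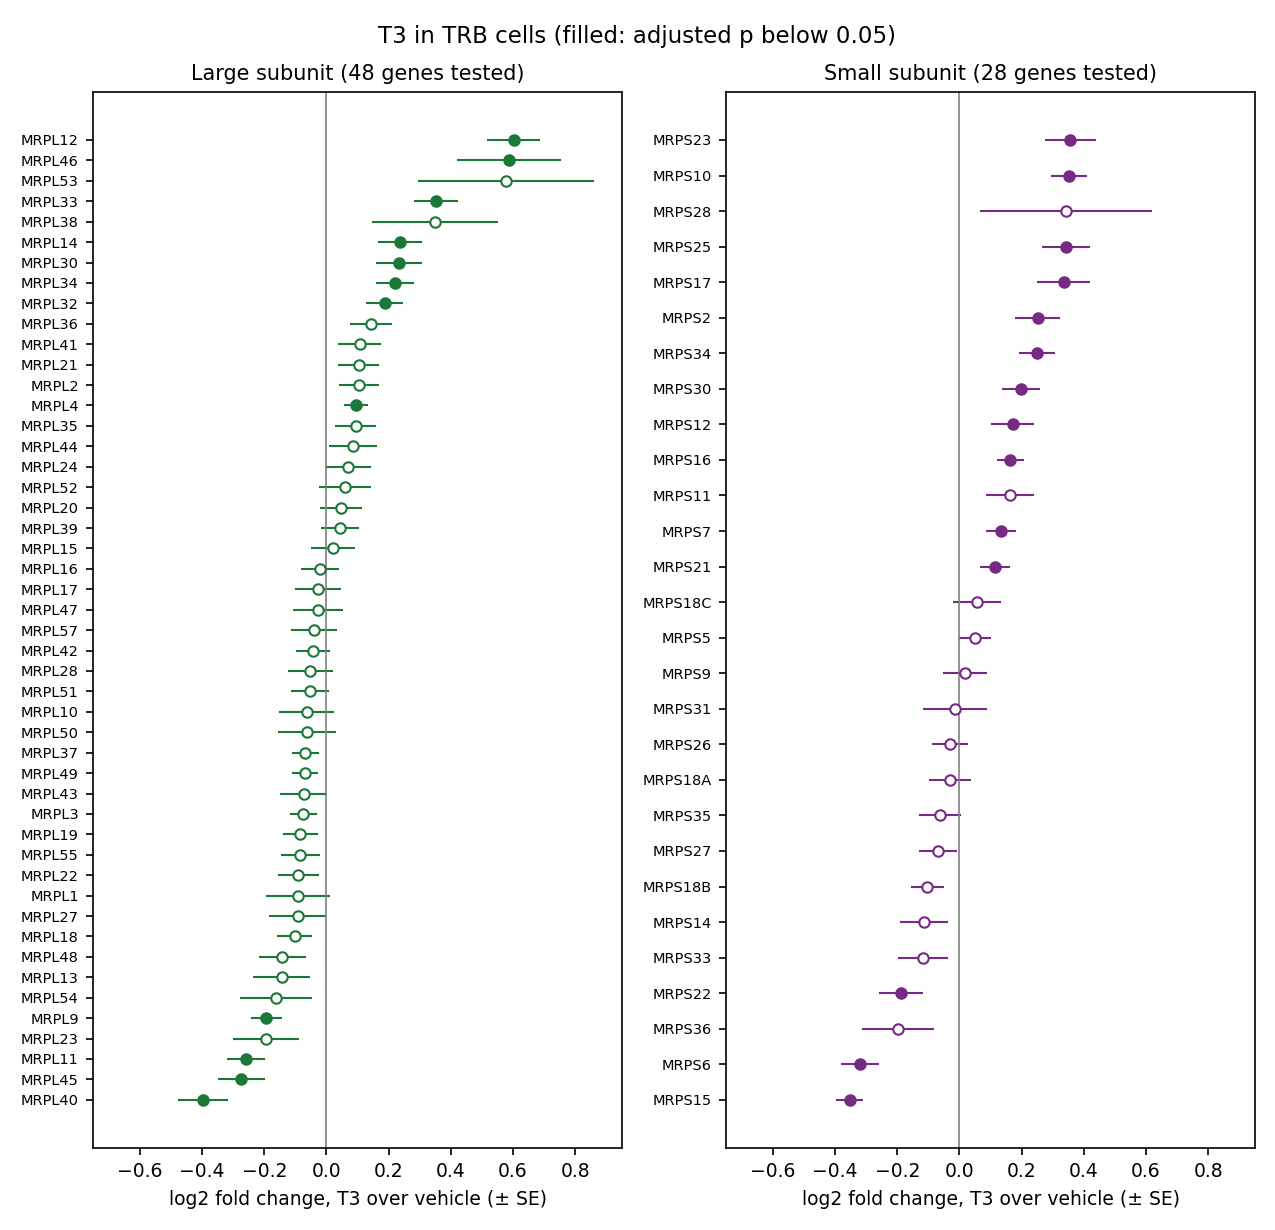
Log2 fold change of each tested member, TRB T3 over TRB vehicle, with bars of 1 standard error, in order of size; filled points passed an adjusted p of 0.05. The 8 filled points to the right of 0 in the large subunit and the 11 in the small subunit are the members that rose; the small subunit panel goes by symbol and so holds MRPS18A, MRPS30 and MRPS36.

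Among large subunit members, MRPL12 had the greatest rise. It forms the flexible stalk that recruits translation factors to the ribosome. MRPL12 stood at 30.4, 30.7 and 28.5 CPM in TRB T3 libraries, against 21.8, 18.4 and 19.0 CPM in TRB vehicle libraries. All 3 T3 libraries lay above all 3 vehicle libraries, with a log2 fold change of 0.60 ± 0.086 (SE; edgeR adjusted p = 1.67e-08), or 1.52-fold. On GRCh38, 68.19% of the exonic bases of MRPL12 (chr17:81703357-81707526) are shared with the gene AC139530.2 on the same strand, so part of its reads may have been discarded. MRPL46, a protein without a bacterial counterpart, had 7.45, 8.08 and 6.63 CPM in TRB T3 libraries, against 5.39, 4.26 and 5.19 CPM in TRB vehicle libraries (log2 fold change 0.59 ± 0.17, adjusted p = 0.00287). Its groups did not overlap, but at this low level the call was lost when counts were thinned to equal depth (adjusted p = 0.129). MRPL33, a small protein with a bacterial counterpart, had 42.4, 40.1 and 40.6 CPM in TRB T3 and 31.3, 33.7 and 31.2 CPM in TRB vehicle libraries. Its log2 fold change was 0.35 ± 0.070 (adjusted p = 2.16e-05). The other large subunit members that rose were MRPL14, MRPL30, MRPL34, MRPL32 and MRPL4, by 0.09 to 0.24 on the log2 scale.

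The large subunit members that fell were MRPL40, MRPL45, MRPL11 and MRPL9. MRPL40, a protein without a bacterial counterpart, had 23.8, 23.7 and 22.0 CPM in TRB T3 libraries, against 33.1, 29.01 and 29.6 CPM in TRB vehicle libraries. It had the greatest fall of all members, with a log2 fold change of -0.40 ± 0.081 (edgeR adjusted p = 3.73e-05) and no overlap between the groups. MRPL45, which anchors the ribosome to the inner membrane near the exit of the nascent chain, had 28.6, 30.4 and 27.3 CPM in TRB T3 and 34.4, 33.3 and 36.9 CPM in TRB vehicle libraries (log2 fold change -0.27, adjusted p = 0.00195). MRPL11, at the base of the stalk that carries MRPL12, had 45.8, 43.4 and 43.3 CPM in TRB T3 and 53.6, 52.7 and 52.2 CPM in TRB vehicle libraries (log2 fold change -0.26, adjusted p = 0.000315). MRPL12 and MRPL11 thus moved in opposite directions, and whether this concerns the stalk as such was not tested. MRPL9 had 90.3, 88.3 and 88.6 CPM in TRB T3 libraries, against 109, 103 and 92.8 CPM in TRB vehicle libraries (log2 fold change -0.19, adjusted p = 0.000988).

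In the small subunit the greatest rises were similar in size. MRPS23, a protein without a bacterial counterpart, had 38.4, 33.3 and 32.6 CPM in TRB T3 libraries, against 29.2, 27.8 and 24.3 CPM in TRB vehicle libraries (log2 fold change 0.36 ± 0.082, edgeR adjusted p = 0.000236). MRPS10, a protein of the head of the subunit, had 79.0, 78.4 and 77.5 CPM in TRB T3 libraries, against 54.2, 67.2 and 62.0 CPM in TRB vehicle libraries. The TRB T3 libraries of MRPS10 were tightly grouped and all above the more scattered vehicle libraries, with a log2 fold change of 0.35 ± 0.057 (adjusted p = 3.36e-07). MRPS25, again without a bacterial counterpart, had 35.0, 35.7 and 35.2 CPM in TRB T3 and 29.97, 27.1 and 26.5 CPM in TRB vehicle libraries (log2 fold change 0.34, adjusted p = 0.000163). All 3 of these genes had T3 libraries above every vehicle library. MRPS34 averaged 70.8 ± 2.67 CPM in TRB T3 and 59.6 ± 3.85 CPM in TRB vehicle libraries (log2 fold change 0.25, adjusted p = 0.000204). MRPS17, MRPS2, MRPS30, MRPS12, MRPS16, MRPS7 and MRPS21 rose by 0.11 to 0.33. MRPS30, a large subunit protein by structure, averaged 63.2 ± 2.31 CPM in TRB T3 and 54.8 ± 4.88 CPM in TRB vehicle libraries (log2 fold change 0.20, adjusted p = 0.00489).

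MRPS15, which binds the small subunit RNA, was both the most abundant small subunit member and the fall with the smallest p. It stood at 130.4, 134 and 122 CPM in TRB T3 libraries, against 166, 165 and 162 CPM in TRB vehicle libraries. No TRB T3 library came near the vehicle libraries, and the log2 fold change was -0.35 ± 0.043 (edgeR adjusted p = 1.13e-10). MRPS6 had 49.4, 47.2 and 45.9 CPM in TRB T3 and 62.8, 60.9 and 54.0 CPM in TRB vehicle libraries (log2 fold change -0.32, adjusted p = 1.39e-05). MRPS22 fell by 0.19 on the log2 scale, with groups that overlapped (adjusted p = 0.0245). MRPS18A (log2 fold change -0.03, adjusted p = 0.743) and MRPS36 (-0.20, adjusted p = 0.162) did not pass the test. MRPL53 (0.58 ± 0.28, adjusted p = 0.0912) and MRPS28 (0.34 ± 0.28, adjusted p = 0.328), at about 2 CPM, had the widest errors.

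Of the 26 calls, 15 were kept under all 16 other settings tried, while MRPL4 and MRPS21 were lost in 12 and 11 of them. Depth and the share of mitochondrial ribosomal RNA moved with treatment. With counts of every library thinned to equal depth 14 members rose and 7 fell, and with the mitochondrially encoded genes left out 17 rose and 7 fell. Of all genes tested, 36.9% and 44.5% were called in these settings, against 44.4% in the main fit.

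**Figure D2:**
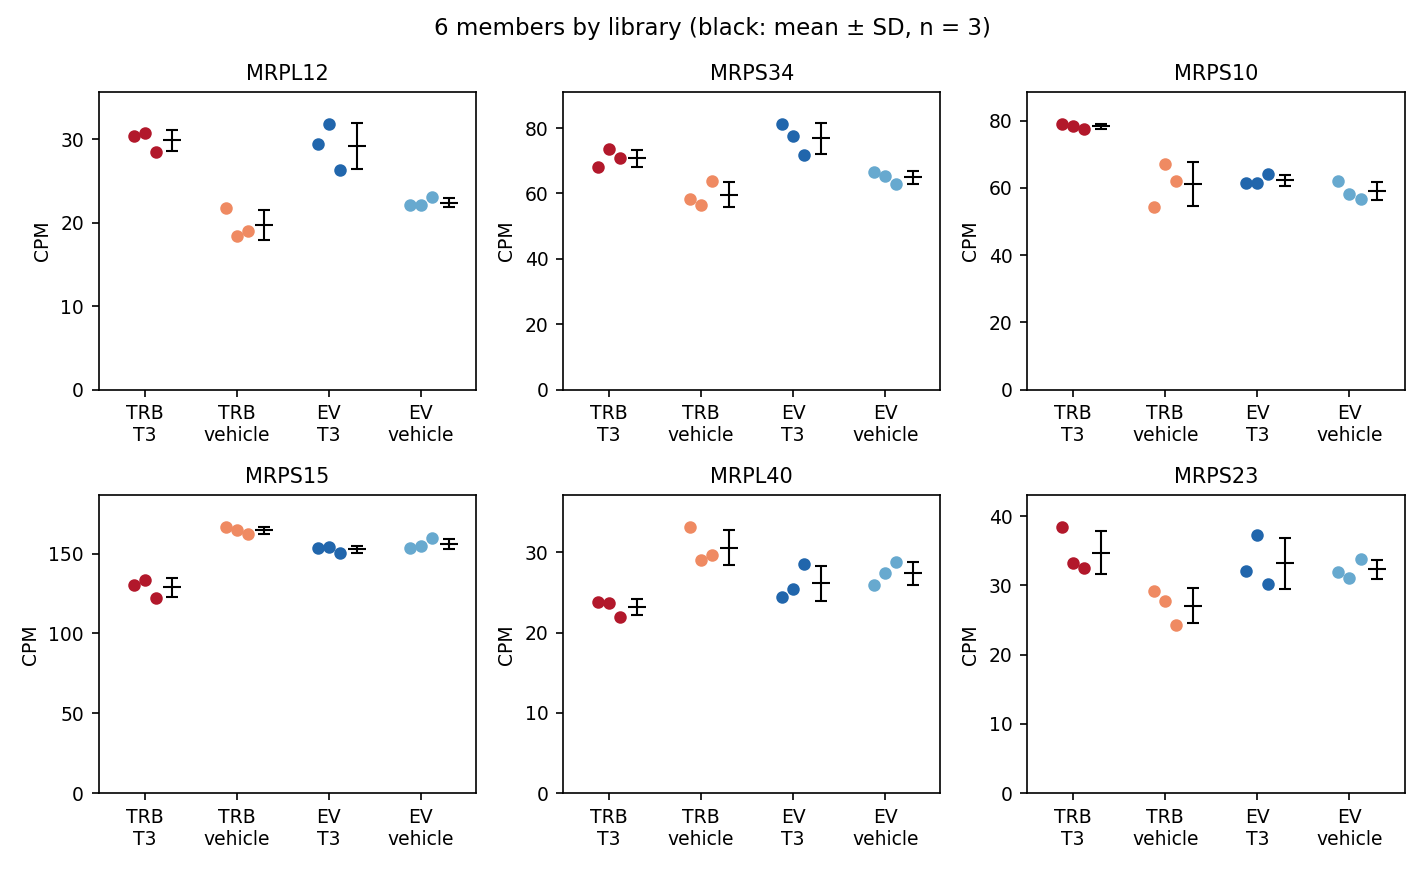
CPM of 6 members in each library, with the mean and SD of each group beside the points (n = 3). MRPL12 and MRPS34 were higher with T3 in both lines, MRPS10 was higher and MRPS15 and MRPL40 were lower in TRB T3 libraries than in TRB vehicle libraries, and MRPS23 was lowest in TRB vehicle libraries.

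The promoters of 5 of these members are shown, because MRPL12 and MRPS34 rose with T3 in both lines and MRPS10, MRPS15 and MRPL40 changed in TRB cells. Each line is the 150 bases just before the RefSeq gene start on GRCh38.p14, read on the strand of the gene, and capitals mark the letters of a motif searched on both strands.
MRPL12, chr17:81703217-81703366, plus strand: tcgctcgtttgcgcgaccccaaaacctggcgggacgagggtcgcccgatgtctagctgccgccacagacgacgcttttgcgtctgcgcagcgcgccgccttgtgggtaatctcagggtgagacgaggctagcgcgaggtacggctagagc
MRPS34, chr16:1773135-1773284, minus strand: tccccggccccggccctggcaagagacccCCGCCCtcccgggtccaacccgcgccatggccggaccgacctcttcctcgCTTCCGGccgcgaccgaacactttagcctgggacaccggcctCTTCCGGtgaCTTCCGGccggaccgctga
MRPS10, chr6:42217862-42218011, minus strand: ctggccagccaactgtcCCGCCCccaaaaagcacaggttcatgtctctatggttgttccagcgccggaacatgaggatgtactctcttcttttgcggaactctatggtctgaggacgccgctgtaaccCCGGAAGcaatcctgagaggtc
MRPS15, chr1:36464385-36464534, minus strand: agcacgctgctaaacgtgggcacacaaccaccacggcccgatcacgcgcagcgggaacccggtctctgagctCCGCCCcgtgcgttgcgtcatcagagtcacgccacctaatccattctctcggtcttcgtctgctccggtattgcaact
MRPL40, chr22:19432395-19432544, plus strand: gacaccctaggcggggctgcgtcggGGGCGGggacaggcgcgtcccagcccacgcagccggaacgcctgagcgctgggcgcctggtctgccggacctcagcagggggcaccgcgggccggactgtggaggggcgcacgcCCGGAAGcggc
In these stretches MRPS34 held 3 ETS motifs and 1 SP1 motif, MRPS10 and MRPL40 1 of each, MRPS15 1 SP1 motif, and MRPL12 none of the letters searched. The search was run over the 250 bases before the start for 69 members with a RefSeq promoter and for all 35116 promoters. The letters CCGGAAG, a core that ETS factors such as GABPA bind, were in 31.9% of member promoters and 8.52% of all promoters. The YY1 letters AAGATGGC were in 7.25% and 1.36%, the SP1 letters GGGCGG in 55.1% and 42.6%, and the palindromic NRF1 motif in 1.45% and 1.03%. GC content was not matched between these sets. The T3 receptor's site letters AGGTCA were in 11.6% of member promoters and 12.1% of all promoters. They were in 4 of the 19 members that rose (MRPL34, MRPS17, MRPS21 and MRPS30) and none of the 7 that fell. They were also in 4 of the 42 with a promoter that were not called. The DR4 motif, 2 such copies in the same direction with 4 letters between them, was in no member promoter and in 0.0142% of all promoters. The ETS letters were in 6 of the 19 members that rose, 2 of the 7 that fell and 14 of the 42 with a promoter that were not called.

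In cells with the empty vector, far fewer genes were called with T3. MRPL12 and MRPS34 rose and no member fell in EV T3 against EV vehicle libraries, or 2.63% of the members called, where 4.54% of all genes tested were called, 2.84% higher and 1.7% lower. At an unadjusted p below 0.05 there were 17 members in either direction. The share of all genes at that threshold was not taken, so this count is no result about the members. DESeq2 also called 2 higher and 0 lower, where it called 3.18% of all genes. The median log2 fold change was 0.035 over the members and -0.0007 over all genes tested. MRPL12 had 29.4, 31.8 and 26.4 CPM in EV T3 libraries, against 22.1, 22.1 and 23.1 CPM in EV vehicle libraries (log2 fold change 0.37 ± 0.090, edgeR adjusted p = 0.00545). MRPS34, a protein without a bacterial counterpart, had 81.3, 77.5 and 71.9 CPM in EV T3 and 66.4, 65.4 and 62.8 CPM in EV vehicle libraries (log2 fold change 0.25 ± 0.059, adjusted p = 0.00479). Neither gene's groups overlapped. Without EV T3 replicate 2 the call of MRPL12 was lost (adjusted p = 0.0839), and without EV vehicle replicate 3 that of MRPS34 (adjusted p = 0.105). In 13 members every EV T3 library lay above every EV vehicle library and in 3 every one lay below, or 17.1% and 3.95%, against 10.4% and 10.2% of all genes tested. MRPS28, at 2.41, 3.48 and 2.82 CPM in EV T3 and 1.44, 0.783 and 2.29 CPM in EV vehicle libraries, had the largest log2 fold change, 0.89 ± 0.30, but did not pass the test (adjusted p = 0.0832).

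The members called with T3 in TRB cells were compared with their values in EV cells. Of the 19 that rose in TRB cells, 17 had a positive value in EV cells, as had 50 of all 76 members, and 2 were called there, with medians of 0.24 in TRB and 0.08 in EV cells on the log2 scale. Of the 7 that fell in TRB cells, 5 had a negative value in EV cells and none was called, with medians of -0.27 and -0.04. Since the 7 and the 19 were chosen on the TRB values, their TRB medians are a description and a smaller median in EV cells is no test of a smaller effect.

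The difference between the T3 effects was tested directly, as the log2 fold change in TRB cells minus that in EV cells. It was positive in 4 members and negative in 6, or 5.26% and 7.89% of the 76, where 23.9% of all genes tested were called, 12.3% positive and 11.6% negative. Of these 10 members, 8 had been called with T3 in TRB cells and none in EV cells. The strongest was MRPS15, with 154, 154 and 150.4 CPM in EV T3 and 154, 155 and 159.8 CPM in EV vehicle libraries, so that its log2 fold change was -0.35 in TRB and -0.04 in EV cells. The difference for MRPS15 was -0.32 ± 0.061 (edgeR adjusted p = 3.1e-05), the one call among the 10 that was kept under all 21 other settings. MRPL9 (difference -0.24, adjusted p = 0.00965) and MRPS6 (difference -0.26, adjusted p = 0.0241) fell in TRB cells and had log2 fold changes of 0.05 and -0.06 in EV cells. MRPS10 (difference 0.26, adjusted p = 0.0172) and MRPL33 (difference 0.30, adjusted p = 0.0226) rose in TRB cells and had log2 fold changes of 0.09 and 0.05 in EV cells. MRPS23 also differed (0.33, adjusted p = 0.0368); its mean was 34.8 ± 3.17 CPM in TRB T3 and 27.1 ± 2.50 CPM in TRB vehicle libraries, and 33.2 ± 3.69 CPM in EV T3 and 32.3 ± 1.40 CPM in EV vehicle libraries. MRPL40 (-0.32), MRPS2 (0.28), MRPL55 (-0.24) and MRPL49 (-0.17) completed the 10, with adjusted p from 0.0343 to 0.0428. Every TRB vehicle library of MRPL33 and of MRPS2 lay below every EV vehicle library. For MRPS15, MRPL40 and MRPL49 every TRB vehicle library lay above every EV vehicle library. Those of MRPS10, MRPL9, MRPS6 and MRPL55 overlapped. The TRB against EV log2 fold changes with vehicle were -0.15 for MRPL33, -0.22 for MRPS2, 0.07 for MRPS15, 0.14 for MRPL40 and 0.08 for MRPL49, and were not called. With T3 they were 0.15 for MRPL33, 0.06 for MRPS2, -0.24 for MRPS15, -0.18 for MRPL40 and -0.09 for MRPL49. For MRPL12 the difference was 0.23 and did not pass the test (adjusted p = 0.204, 95% interval -0.03 to 0.48). The counts depended on single libraries. With single libraries left out, 19.5 to 24.3% of all genes tested were called, against 23.9% with all libraries. The 4 positive calls became 1 or 2 without TRB vehicle replicate 1 or 3, TRB T3 replicate 1, EV vehicle replicate 1 or 2, or EV T3 replicate 1 or 3. The 6 negative calls became 1 to 3 without TRB vehicle replicate 1, TRB T3 replicate 3, EV vehicle replicate 1 or 3, or EV T3 replicate 2.

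**Figure D3:**
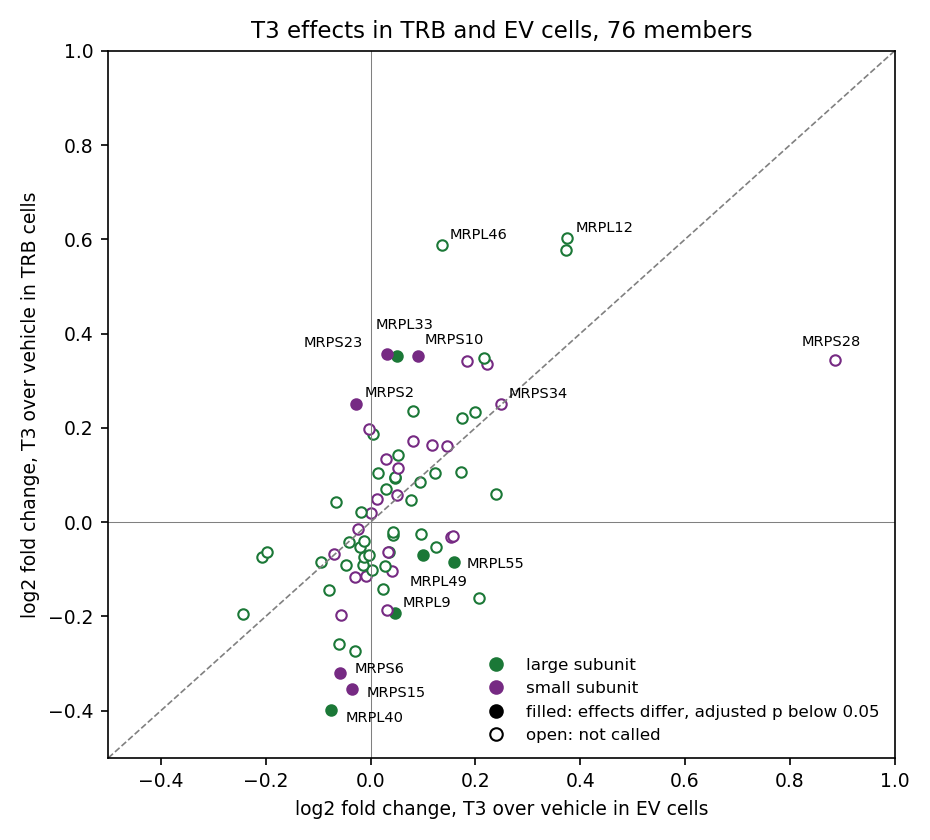
Log2 fold change with T3 in TRB cells against that in EV cells for the 76 tested members, with the line of equal effects dashed; filled points are the 10 members whose effects differed at an adjusted p below 0.05. MRPL12 lies high on both axes at 0.60 and 0.37, while MRPS15 lies at -0.35 and -0.04 and MRPS28 stands alone at 0.34 and 0.89 without passing either test.

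The vector comparison under vehicle set the TRB line against the EV line without T3. No member rose and 3 fell in TRB vehicle against EV vehicle libraries, or 3.95%, where 15.3% of all genes tested were called, 7.86% higher and 7.4% lower. At an unadjusted p below 0.05 there were 12 members in either direction, again without a share of all genes beside it. DESeq2 called 0 higher and 2 lower, where it called 10.3% of all genes. MRPL36, a small protein with a bacterial counterpart, had 34.4, 36.3 and 35.7 CPM in TRB vehicle and 45.2, 43.2 and 40.9 CPM in EV vehicle libraries (log2 fold change -0.27 ± 0.075, edgeR adjusted p = 0.0079). MRPL4, which lines the exit tunnel, had 214, 214 and 207 CPM in TRB vehicle and 239, 232 and 237 CPM in EV vehicle libraries (log2 fold change -0.16 ± 0.042, adjusted p = 0.00562). MRPS23 was called just below the threshold (log2 fold change -0.26 ± 0.093, adjusted p = 0.0493) and was lost under 7 of 16 other settings. In 4 members every TRB library lay above every EV library and in 14 every one lay below, or 5.26% and 18.4%, against 15.3% and 14.8% of all genes tested.

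With T3 present, more members were lower than higher in TRB cells. In TRB T3 against EV T3 libraries 4 members were higher and 20 lower, or 5.26% and 26.3%, where 40.7% of all genes tested were called, 21% higher and 19.7% lower. The median log2 fold change was -0.060 over the members and 0.0019 over all genes tested. Both subunits had more lower than higher calls, with 3 higher and 14 lower in the large and 1 higher and 6 lower in the small subunit. MRPS10 was 79.0, 78.4 and 77.5 CPM in TRB T3 libraries, against 61.3, 61.4 and 64.2 CPM in EV T3 libraries, a log2 fold change of 0.33 ± 0.053 (edgeR adjusted p = 3.95e-07). MRPL32, a protein with a bacterial counterpart, was 58.7, 58.6 and 58.5 CPM in TRB T3 and 48.5, 52.6 and 50.2 CPM in EV T3 libraries (log2 fold change 0.21, adjusted p = 0.00116). MRPL39 (0.20) and MRPL33 (0.15) were the other members higher in TRB T3 libraries, and the call of MRPL33 was lost under 13 of 16 other settings. None of the 4 had groups that overlapped.

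Of the members that were lower in TRB T3 than in EV T3 libraries, MRPS18B had the smallest p after MRPS15. MRPS18B had 76.2, 77.9 and 75.3 CPM in TRB T3 and 89.6, 92.4 and 95.2 CPM in EV T3 libraries (log2 fold change -0.27 ± 0.049, edgeR adjusted p = 2.7e-06). MRPL13 and MRPL54, both of the large subunit, had the largest falls, each with a log2 fold change of -0.31 (adjusted p = 0.00138 and 0.0137). MRPL11 (-0.25), MRPS15 (-0.24), MRPL51 (-0.23) and MRPS18A (-0.22) followed. MRPL11 and MRPS15 had also fallen with T3 within TRB cells, and both comparisons share the TRB T3 libraries. In 5 members every TRB T3 library lay above every EV T3 library and in 23 every one lay below, or 6.58% and 30.3%, against 24.2% and 23.4% of all genes tested. Without TRB T3 replicate 3 or without EV T3 replicate 2, 12 members were lower in place of 20, and thinning to equal depth or DESeq2 also gave 12.

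**Figure D4:**
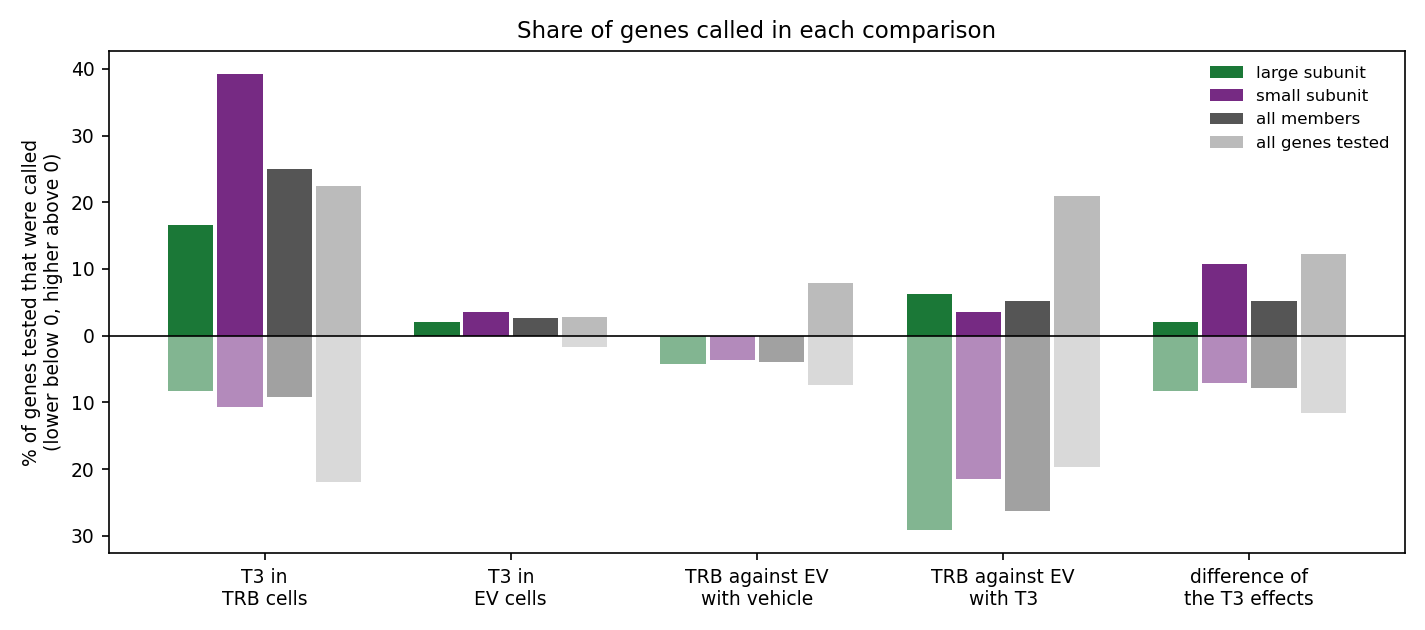
Percent of genes tested that were called higher (above 0) and lower (below 0) in each comparison, for the large subunit, the small subunit, all members and all genes tested. For T3 in TRB cells the small subunit stands at 39.3% higher and 10.7% lower, against 22.4% and 21.9% of all genes tested. For TRB against EV with T3 the members stand at 5.26% higher and 26.3% lower, against 21% and 19.7% of all genes tested.

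Summed over the members, the messages of both subunits were lower in TRB T3 than in EV T3 libraries and overlapped between TRB T3 and TRB vehicle libraries. The 77 members summed to 3864 ± 102 CPM in TRB T3, 3833 ± 77.7 in TRB vehicle, 4049 ± 57.3 in EV T3 and 3937 ± 51.4 in EV vehicle libraries (SD, n = 3 each). The large subunit summed to 2374 ± 61.3 CPM in TRB T3 and 2381 ± 50.8 CPM in TRB vehicle libraries, and the small subunit to 1489 ± 40.9 and 1452 ± 27.4 CPM, with libraries that overlapped. TRB T3 libraries lay below EV T3 libraries without overlap in both subunits. The ranges were 2304 to 2415 against 2466 to 2539 CPM for the large and 1442 to 1518 against 1528 to 1569 CPM for the small subunit. With vehicle, the small subunit sums of TRB libraries also lay below those of EV libraries, at 1422 to 1475 against 1476 to 1505 CPM. The large subunit sums with vehicle overlapped, at 2323 to 2414 against 2411 to 2485 CPM. The ratio of small to large subunit CPM, in which scaling between libraries cancels, was steadier. It was 0.627 ± 0.00128 in TRB T3 and 0.610 ± 0.00304 in TRB vehicle libraries, and 0.617 ± 0.00324 in EV T3 and 0.608 ± 0.00348 in EV vehicle libraries. T3 libraries lay above vehicle libraries in both lines without overlap, at 0.626 to 0.629 and 0.606 to 0.612 in TRB cells and at 0.613 to 0.6196 and 0.605 to 0.612 in EV cells. With members placed by structure the TRB ranges stayed apart (0.553 to 0.554 with T3 and 0.534 to 0.546 with vehicle), while those of EV cells overlapped (0.538 to 0.548 and 0.534 to 0.542). Without MRPS15 and MRPL4, the most abundant member of each subunit, the ratio was 0.633 ± 0.0016 in TRB T3 and 0.593 ± 0.00276 in TRB vehicle libraries. No test was made on these sums, since the members were chosen with results known, and a ratio of messages is not a ratio of ribosomal subunits.

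**Figure D5:**
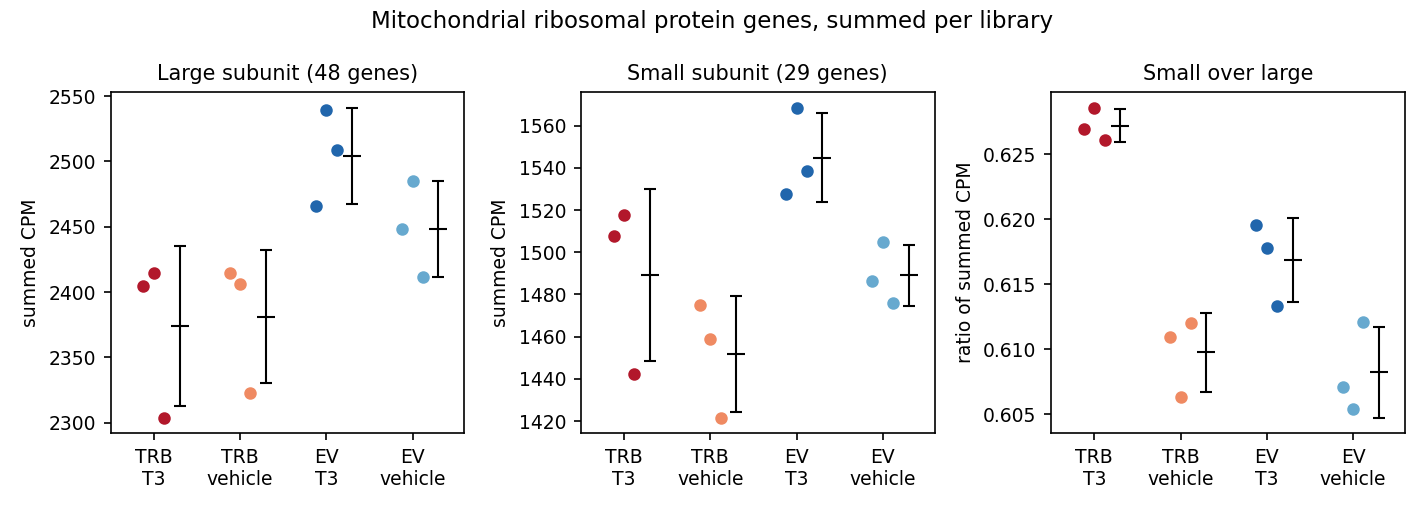
Summed CPM of the large subunit, summed CPM of the small subunit and their ratio in each library, with the mean and SD of each group (n = 3); the vertical axes do not start at 0. The sums of TRB T3 and TRB vehicle libraries overlap, while the ratio lies at 0.626 to 0.629 in TRB T3 and 0.606 to 0.612 in TRB vehicle libraries.

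The ribosome needs further proteins that carry other symbols. Of 6 such subunits, T3 in TRB cells raised PTCD3, a small subunit protein, at 109.7 ± 3.45 CPM in TRB T3 and 95.7 ± 4.75 CPM in TRB vehicle libraries (log2 fold change 0.19, edgeR adjusted p = 0.000571), and the other 5 were not called. Of 26 assembly and RNA modification factors, 10 rose and 16 were not called. The 3 with the smallest p were FASTKD2, which binds MT-RNR2 (log2 fold change 0.39), MTG2, a GTPase of large subunit assembly (0.36), and DHX30, a helicase of mitochondrial RNA granules (0.17). Of 13 translation factors, 4 rose and 1 fell. GFM2, which recycles the ribosome after termination, stood at 68.0 ± 2.33 CPM in TRB T3 and 41.0 ± 0.211 CPM in TRB vehicle libraries, a log2 fold change of 0.73 that was larger than that of any tested member. GFM1, the elongation factor that moves the ribosome along its message, rose by 0.37, and MTRF1L, a release factor, by 0.55, whereas the initiation factor MTIF3 fell by 0.21.

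Of 19 genes of mitochondrial transcription, RNA processing and message stability, 8 rose with T3 in TRB cells and 11 were not called. They included TBRG4 (log2 fold change 0.42, edgeR adjusted p = 1.63e-12), OXA1L, which inserts new proteins into the inner membrane (0.30, adjusted p = 1.91e-06), and POLRMT, the mitochondrial RNA polymerase (0.36, adjusted p = 2.35e-05). Of 17 mitochondrial aminoacyl-tRNA synthetases 5 rose and 4 fell, and those that rose included VARS2 (log2 fold change 0.63) and MARS2 (0.47). In EV cells T3 raised AURKAIP1, TBRG4 and VARS2 of these lists, by 0.21, 0.15 and 0.24, where 2.84% of all genes tested were called higher. The 13 mitochondrial messenger RNAs summed to 30652 ± 1415 CPM in TRB T3 and 23748 ± 2545 CPM in TRB vehicle libraries, and 25281 ± 5409 CPM in EV T3 and 24252 ± 3518 CPM in EV vehicle libraries. All 13 had a positive log2 fold change with T3 in TRB cells, with a median of 0.36. The one called, MT-ND6 (2.79 ± 0.51, adjusted p = 0.00184), lies on the other strand from its neighbours, and whether counting used strand is not stated in the labels. The RNAs of the ribosome, MT-RNR1 and MT-RNR2, fell with T3, with log2 fold changes of -4.60 and -3.75 in TRB cells and -5.66 and -4.29 in EV cells. The labels name no step of ribosomal RNA removal, and whether these values reflect the cells or library preparation was not tested.

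Among 9 regulators of mitochondrial biogenesis, 4 rose and 3 fell with T3 in TRB cells. PPARGC1B, a coactivator, had 48.6, 48.5 and 46.2 CPM in TRB T3 libraries, against 18.7, 19.7 and 18.6 CPM in TRB vehicle libraries (log2 fold change 1.33, edgeR adjusted p = 1.27e-24). ESRRA, a nuclear receptor that acts with such coactivators, rose by 0.75 in TRB cells and by 0.35 in EV cells. PPARGC1A, the best known of these coactivators, had 5.74, 5.12 and 6.46 CPM in TRB T3 libraries, against 0.263, 0.112 and 0 CPM in TRB vehicle libraries, where 3 counts were found in all, and no count in any EV library. MYC also rose (0.40), and GABPA, YY1 and GABPB1, whose motifs or complex were searched for above, fell by 0.24, 0.14 and 0.21. NRF1 had a log2 fold change of 0.08 and was not called (adjusted p = 0.54). All of these lists were chosen with earlier results of these data known, and beside them stand the 22.4% of all genes tested that rose and the 21.9% that fell.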

How the data were processed

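RNA of MDA-MB-468 cells in 12 libraries was extracted with Trizol and prepared with the NEBNext Ultra II kit, per the labels' protocols. CASAVA 1.7, STAR 2.7, HTSeq 0.10, DESeq2 and the build hg38 are named, per the submitters' processing notes, without their settings. The deposited files hold whole-number read counts per gene. Lines that name no gene, 31.87 to 39.24% of each file, were left out of totals and tests. Reads without a unique alignment were 14.9 to 17.6% of each T3 file and 17.6 to 24.5% of each vehicle file. GENCODE names pseudogenes for 34 of the 77 members, and some of their reads may be lost in this way. The part of this in the results was not tested. A second deposited table, treated as a score, equals each library's counts times a single factor, rounded, to within 0.589, and served only to check the columns.

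All 4 groups were fitted together with edgeR 4.0.16 (quasi-likelihood test, robust; R 4.3.3, limma 3.58.1), with TMM scaling and filterByExpr at 10 counts per library and 15 in total, which left 14549 genes and 8 residual degrees of freedom. P-values were Benjamini-Hochberg adjusted over all 14549 genes and called below 0.05. CPM are TMM-scaled, SD is over 3 libraries, and SE is the fold change divided by the root of its F statistic. Alternatives were other scaling, filters, DESeq2 1.42.0, thinning to the smallest total, GC offsets, a replicate block and leaving out each library. HTSeq by default discards reads that fall on several genes (the setting used is not stated), and 41 members share exonic bases with another gene, so levels of such members may be low. Promoters are from RefSeq (GRCh38.p14) and gene lengths from GENCODE.

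The members and lists were chosen with earlier results of these data known. Named with values were the 6 highest and 6 lowest called members of each comparison, the 3 most and least abundant, any member that failed the filter, MRPL12, MRPS18A, MRPS30 and MRPS36, and the 3 smallest p of each list; other members named were chosen after their values were seen. Some genes that this rule names are not reported here. Same-numbered libraries did not deviate together (0 of 18 pairs had a correlation over 0.1), so they were not treated as paired.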

Additional observations from a re-analysis of the deposited data

Results flagged for a closer look

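The T3 effect of 10 members differed between TRB and EV cells in a direct test of the difference (edgeR quasi-likelihood, adjusted p below 0.05). The log2 difference, TRB minus EV, was -0.32 for MRPS15 (adjusted p = 3.1e-05), -0.24 for MRPL9 (0.00965), -0.26 for MRPS6 (0.0241), -0.17 for MRPL49 (0.0343), -0.32 for MRPL40 (0.0376) and -0.24 for MRPL55 (0.0428). It was 0.26 for MRPS10 (0.0172), 0.30 for MRPL33 (0.0226), 0.33 for MRPS23 (0.0368) and 0.28 for MRPS2 (0.0406). MRPL49 and MRPL55 were called with T3 in neither line, at -0.07 and -0.08 in TRB cells and 0.10 and 0.16 in EV cells. For MRPS23 the groups that stood lowest were the TRB vehicle libraries, which were also lower than EV vehicle libraries. For MRPL33 and MRPS2 every TRB vehicle library also lay below every EV vehicle library, without a call. For MRPS15, MRPL40 and MRPL49 every TRB vehicle library lay above every EV vehicle library, again without a call.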

How the results depend on the processing

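With T3 in TRB cells, 14 to 19 members were higher and 6 to 8 lower under every alternative except GC offsets, which gave 14 and 12. The share of all genes called ran from 20.0% without a filter to 49.0% over protein-coding genes, against 44.4% in the main fit. With T3 in EV cells, thinned counts and GC offsets each left 1 higher member, and leaving out single libraries 1 to 2. Of all genes, 3.03%, 4.92% and 1.84 to 4.57% were called in these settings, against 4.54%. For TRB against EV with vehicle, GC offsets gave 5 lower members, and leaving out single libraries 2 to 4. Of all genes, 17.8% and 10.5 to 12.4% were called in these settings, against 15.3%. For TRB against EV with T3, thinned counts gave 2 higher and 12 lower members, DESeq2 gave 12 lower, and leaving out single libraries gave 3 to 5 higher and 12 to 21 lower. Of all genes, 30.7%, 26.2% and 34.9 to 39.1% were called in these settings, against 40.7%. For the difference of the T3 effects, DESeq2 gave 0 higher and 2 lower members, no filter 1 and 3, thinned counts 3 and 3, and leaving out single libraries 1 to 5 and 1 to 8. Of all genes, 15.8%, 9.81%, 18.6% and 19.5 to 24.3% were called in these settings, against 23.9%. The ratio of small to large subunit CPM in TRB T3, TRB vehicle, EV T3 and EV vehicle libraries was 0.553, 0.541, 0.545 and 0.537 by structure, and 0.593, 0.578, 0.591 and 0.578 per kilobase. Without the most abundant members it was 0.633, 0.593, 0.616 and 0.603, and thinned it was 0.605 in EV vehicle libraries. Leaving out single libraries gave 0.627 to 0.628, 0.609 to 0.611, 0.616 to 0.619 and 0.606 to 0.6096. The cause of these moves was not tested. Of the calls, MRPL22 changed sign in TRB against EV with T3 under thinned counts (0.01 in place of -0.15 on the log2 scale, adjusted p = 0.944), and no other called member changed sign. With T3 in TRB cells, GC offsets turned the large subunit's split to 6 higher and 8 lower, where all genes tested had 2892 higher and 3413 lower. With the replicate number as a block, 19 members were higher and 7 lower with T3 in TRB cells, 2 and 0 with T3 in EV cells, 0 and 4 for TRB against EV with vehicle, 4 and 20 with T3, and 4 and 6 for the difference; correlations of same-numbered libraries ran from -0.133 to 0.0974, so the block has no pairing behind it. Restriction to protein-coding genes was chosen after seeing the data and gave 19 higher and 7 lower members with T3 in TRB cells. The shallowest library held 4241863 counts, which limits members such as MRPS24, MRPS28 and MRPL53. These members also share exonic bases with other genes on the same strand, so their low counts may come in part from discarded reads.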
